A study of Mus musculus with 25 samples.

Results

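The 10 interferon-inducible GTPase genes followed here were measured in the livers of mice given concanavalin A. They were the guanylate-binding protein genes Gbp2, Gbp3, Gbp5, Gbp6 and Gbp7 and the immunity-related GTPase genes Irgm1, Irgm2, Igtp, Iigp1 and Tgtp1. A member was any gene of these names to which the RefSeq accession of a probe led, and the 10 members came with 13 probes, out of 15104 genes kept over the whole array.

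The mice were female C57BL/6NcrSlc animals, and liver RNA of each mouse was hybridised to its own 1-colour Agilent array. Concanavalin A is a lectin from jack bean whose stimulation of T cells leads to hepatitis in mice, and it was given at 10 mg/kg. After 15 min the mice received either vehicle or BW245C at 1 mg/kg, an agonist of the prostaglandin D2 receptor DP1, into the peritoneum. Livers were taken at 3 or 24 hr. The 5 groups of 5 mice were untreated mice, concanavalin A with vehicle at 3 hr, concanavalin A with BW245C at 3 hr, and the same pair at 24 hr. The untreated mice received neither lectin nor vehicle, no group received BW245C without concanavalin A.

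Interferon-γ, made mainly by T and NK cells, signals through its receptor and the kinases Jak1 and Jak2. Genes it induces often carry GAS elements or ISRE elements near their start, and induced factors such as Irf1 bind ISRE elements. The guanylate-binding proteins and the immunity-related GTPases are large interferon-inducible GTPases that gather on the vacuoles of intracellular pathogens and help to break them open, and Gbp2 and Gbp5 are also known for their part in inflammasome activation. Among the immunity-related GTPases, Irgm1, Irgm2 and Igtp carry an altered nucleotide-binding motif and act as regulators that keep the others off the cell's own membranes, while Iigp1 and Tgtp1 are effectors that load onto vacuoles.

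The start regions of the members are shown first, as the sequences in which GAS and ISRE letters can be read. RefSeq windows (build GRCm38.p6) were found for 8 of the 10 members, and none for Gbp6 and Iigp1. Matches were sought on both strands in the 250 bases before the annotated start, for GAS as TTC and GAA with any 3 bases between them (TTCNNNGAA) and for ISRE as a pair of GAAA with any 2 bases between them. Each of these 8 members had a window with an ISRE match, against 2.98% of 32851 mouse windows of the same length. Gbp3 had a second window, which held neither motif. The GAS match stood in 5 of the 8 (Gbp5, Gbp7, Irgm2, Igtp and Tgtp1), against 7.02% of all windows. In the sequences the capitals mark these matches, and 120 bases are given except for Gbp5, whose matches lie farther out.
Irgm2, chr11:58214857-58214976, plus strand: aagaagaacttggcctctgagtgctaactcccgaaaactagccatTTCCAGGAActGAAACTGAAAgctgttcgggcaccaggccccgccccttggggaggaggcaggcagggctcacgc
Igtp, chr11:58199436-58199555, plus strand: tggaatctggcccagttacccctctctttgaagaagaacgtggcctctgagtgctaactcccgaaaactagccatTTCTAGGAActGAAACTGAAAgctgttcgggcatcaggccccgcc
Tgtp1, chr11:48992247-48992366, minus strand: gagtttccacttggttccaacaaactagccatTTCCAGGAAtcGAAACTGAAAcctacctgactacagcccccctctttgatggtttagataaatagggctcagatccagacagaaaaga
Gbp7, chr3:142530216-142530335, plus strand: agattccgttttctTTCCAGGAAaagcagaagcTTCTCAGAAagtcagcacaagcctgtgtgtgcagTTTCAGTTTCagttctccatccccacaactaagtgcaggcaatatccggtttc
Gbp5, chr3:142496684-142496933, plus strand: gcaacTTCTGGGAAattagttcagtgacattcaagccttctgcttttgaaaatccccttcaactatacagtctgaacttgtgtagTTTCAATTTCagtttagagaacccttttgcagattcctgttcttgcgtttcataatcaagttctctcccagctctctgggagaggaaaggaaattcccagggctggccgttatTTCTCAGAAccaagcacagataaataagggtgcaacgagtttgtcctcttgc
Gbp2, chr3:142620543-142620662, plus strand: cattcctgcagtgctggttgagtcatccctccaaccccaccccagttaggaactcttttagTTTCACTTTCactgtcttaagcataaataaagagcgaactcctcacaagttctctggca
Gbp3, chr3:142559924-142560043, plus strand: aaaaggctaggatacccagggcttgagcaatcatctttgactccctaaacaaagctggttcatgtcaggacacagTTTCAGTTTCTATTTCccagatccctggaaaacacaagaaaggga
Irgm1, chr11:48871421-48871540, minus strand: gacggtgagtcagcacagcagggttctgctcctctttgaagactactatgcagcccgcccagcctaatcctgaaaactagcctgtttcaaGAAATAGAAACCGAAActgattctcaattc
In Irgm2, Igtp and Tgtp1 the GAS match was followed after 2 bases by the ISRE match. That arrangement, searched over all windows after it had been seen in these genes, occurred in 5 of the 32851 windows (0.0152%), all on chromosome 11: these 3 genes, Tgtp2 and Gm12185. Irgm2 and Igtp also shared an identical stretch of 55 bases, which lies farther from the start than the bases printed and holds neither match. In Gbp5 the elements were spread over the window, with GAS matches 245 and 52 bases before the start and the ISRE match 165 bases before it. Gbp2, Gbp3 and Irgm1 had ISRE matches and no GAS match in this window. A match describes letters and is not evidence of binding.

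**Figure D1:**
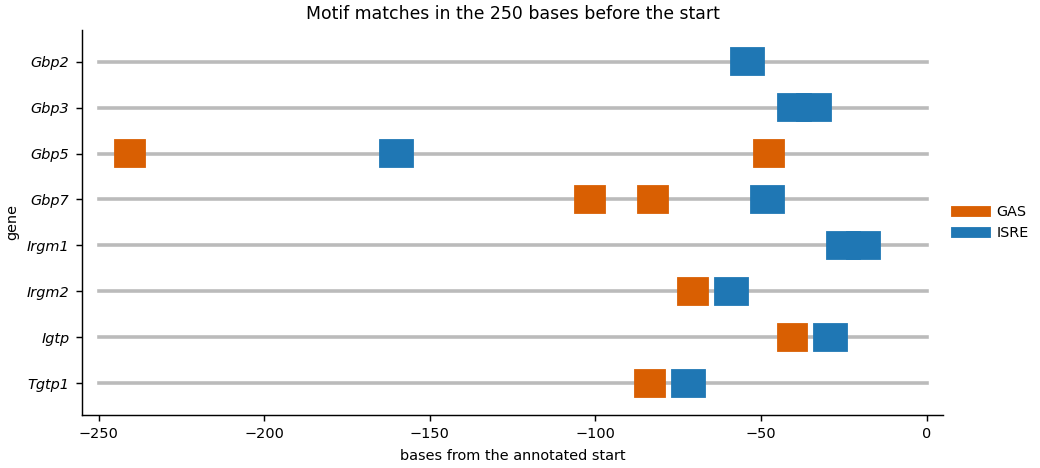
Matches to GAS (orange) and ISRE (blue) in the 250 bases before the annotated start of the 8 members with a RefSeq window, by distance from the start in bases. The matches of Irgm2, Igtp and Tgtp1 sit side by side with 2 bases between them, and those of Gbp5 are spread out.

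All levels below are the log2 of the background-subtracted signal minus the 75th percentile of that array, so that 0 is the brightness of the array's 75th percentile, and a level of one probe is not compared with that of another. On each array 52.2% to 61.6% of spots were well above background, and the members were so on all 25 arrays, while Ifng was on 3 of 5 untreated arrays and on all others. Differences were tested with limma over the 15104 genes and called at a Benjamini-Hochberg adjusted p under 0.05. Slides and groups could not be fully separated over the 5 slides: 4 of 5 untreated arrays were on 1 slide, and all 5 arrays of BW245C at 3 hr shared a slide with 2 arrays of vehicle at 3 hr and 1 of vehicle at 24 hr. No slide held both untreated mice and BW245C mice at 3 hr, or both untreated mice and vehicle mice at 24 hr. Nor did any slide hold BW245C mice of both times. These differences have no value within a slide. All 10 hepatocyte markers were detected in every group, as fits the label. Liver is a mixture of cell types, and in such tissue a change in the number of cells and a change in RNA per cell cannot be told apart.

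All 10 GTPase genes rose within 3 hr of concanavalin A and vehicle, against 25% of all genes called higher, with a median log2 difference of 4.40 where the median of all genes was -0.09. The 5 mice of each group did not overlap for any of the 10, while 18.2% of all genes were higher without overlap. The guanylate-binding protein genes rose by 4.07 to 7.34 and the immunity-related GTPase genes by 2.48 to 5.96. Ifng itself rose by 6.66 ± 0.25 (SE), or 101-fold. On the 2 slides that held both groups all 10 were higher within the slide, by 2.33 to 7.02 and by 2.79 to 7.68.

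Gbp2 had the largest rise of the 10. Its levels were 0.91, 0.65, 1.10, 0.37 and 0.63 in untreated mice and 8.35, 8.30, 7.77, 7.82 and 8.10 with vehicle at 3 hr. The lowest treated mouse thus stood far above the highest untreated one. The difference was 7.34 ± 0.21 (SE, n = 5 and 5; adjusted p = 7.45e-18), a 162-fold rise that ranked 20 of 15104 genes. Gbp5, the family member that promotes assembly of the NLRP3 inflammasome, went from -1.03, -1.68, -1.19, -1.63 and -1.24 to 5.82, 5.39, 5.04, 5.52 and 5.57. This was a difference of 6.82 ± 0.26, or 113-fold, and the intervals of Gbp2 (6.90 to 7.78) and Gbp5 (6.29 to 7.36) overlapped. Gbp6 rose by 5.57 ± 0.22, Gbp3 by 4.73 ± 0.17 and Gbp7 by 4.07 ± 0.17.

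Among the immunity-related GTPases the effector Tgtp1 had the largest rise. Its levels were -3.57, -3.60, -3.87, -3.93 and -3.83 in untreated mice and 2.33, 2.45, 1.94, 2.02 and 2.28 with vehicle at 3 hr. The groups were far apart, with a difference of 5.96 ± 0.17, or 62.3-fold (adjusted p = 7.64e-18). Irgm1, a regulator needed by mice to control several intracellular bacteria, went from 3.84, 3.81, 3.91, 4.02 and 3.88 to 7.72, 7.75, 7.58, 7.41 and 7.56. Both of its groups were tight, and the difference was 3.71 ± 0.11, or 13.1-fold. The other effector, Iigp1, rose 9.08-fold and the regulator Igtp 8.58-fold, and their intervals overlapped. Irgm2 rose least, by 2.48 ± 0.13, or 5.56-fold.

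With BW245C at 3 hr all 10 were also higher than in untreated mice, against 27% of all genes, with a median of 3.56. At 24 hr all 10 were still higher with vehicle (29.8% of all genes) and with BW245C (22.7% of all genes), with medians of 3.56 and 2.98. These comparisons share the untreated mice. At 24 hr with vehicle the differences from untreated mice ran from 1.59 in Iigp1 and 1.67 in Irgm2 to 5.14 in Tgtp1 and 6.05 in Gbp2, which was still 66.4-fold higher. Ifng stood 4.46 above untreated mice with vehicle and 3.00 with BW245C.

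**Figure D2:**
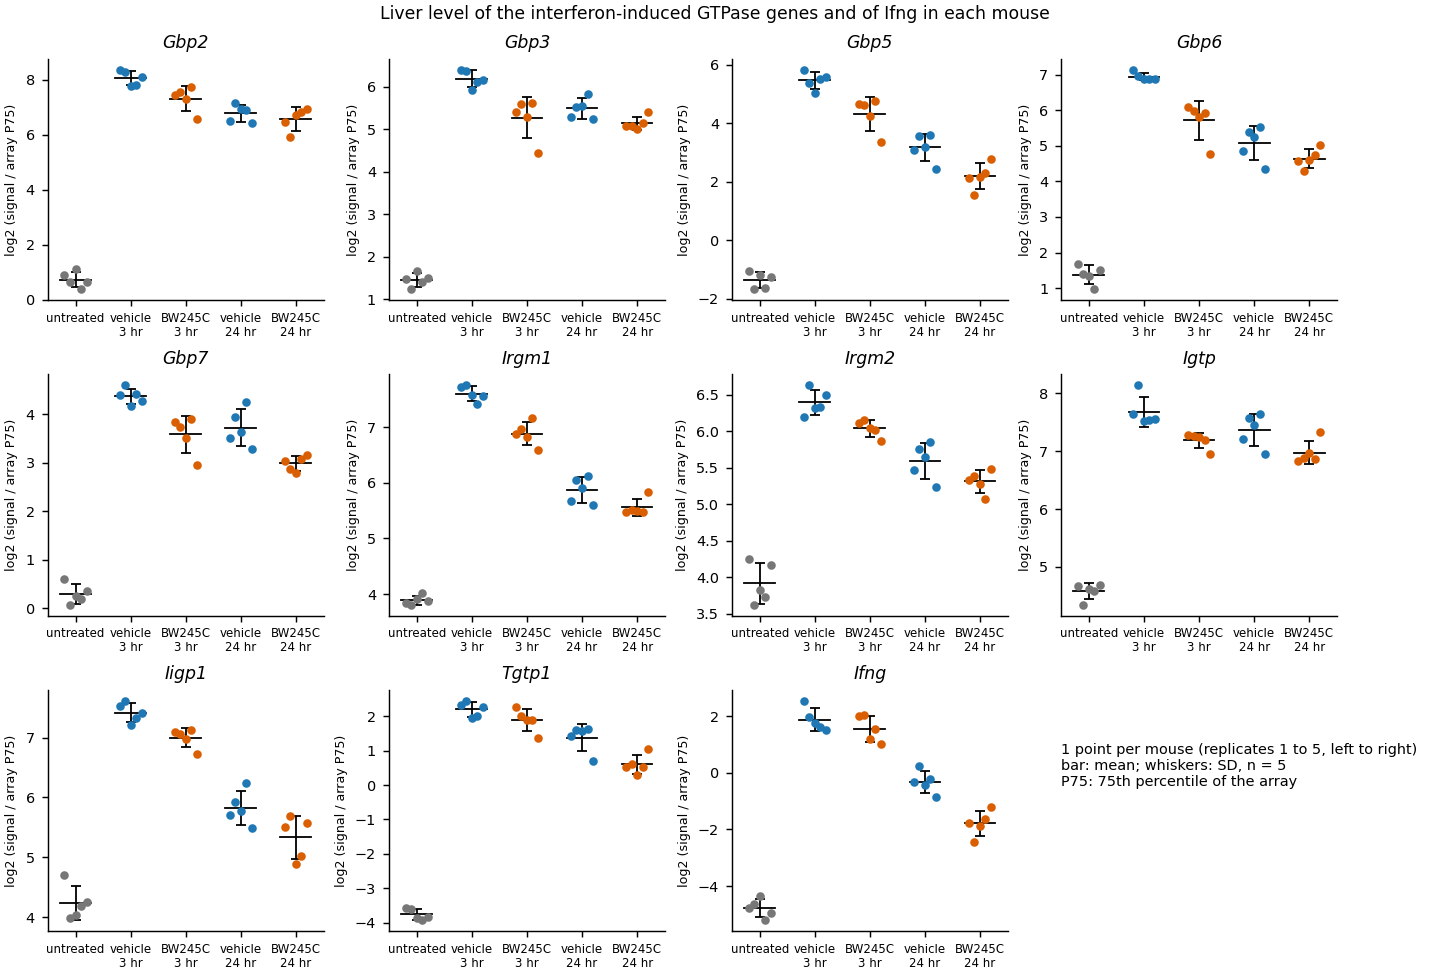
Level of each member and of Ifng in each mouse by group, as log2 of the signal over the 75th percentile of its array. Points are mice, bars the mean and whiskers the SD (n = 5). In every panel the 5 untreated mice lie below all mice given concanavalin A, and in the BW245C group at 3 hr replicate 5 is the lowest point of each panel.

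Several members had more than 1 reporter or a close copy. Igtp was printed as 10 spots on each array, whose log2 values had an SD of 0.02 to 0.07 within an array, well under the spread between mice. The second probe of Gbp6 gave a larger fall from 3 to 24 hr with vehicle (-2.79) than the probe used (-1.88) and a smaller difference between BW245C and vehicle at 3 hr (-0.71 against -1.23). Gbp6 and Gbp10 are near copies, and so are Tgtp1 and Tgtp2. The probes named for Tgtp2 rose by 5.57 and 5.28 at 3 hr, close to the 5.96 of Tgtp1, and which copy each probe reads was not settled here.

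From 3 to 24 hr with vehicle all 10 members fell, against 35.3% of all genes, with a median of -1.05, and Ifng fell by 2.20. They did so at very different rates. Gbp5 at 24 hr was at 20.4% of its level at 3 hr (95% interval 14.1% to 29.5%), with 3.09, 3.56, 3.19, 3.61 and 2.45 at 24 hr. No mouse at 24 hr reached the lowest value at 3 hr, which was 5.04. Gbp6 was at 27.3% by the probe used, Irgm1 at 30.1%, Iigp1 at 33.3% and Gbp2 at 41.0%. By its second probe (-2.79) Gbp6 fell more than Gbp5 (-2.29). At the slow end were Tgtp1 at 56.7%, Irgm2 at 57.3%, Gbp3 at 61.4% and Gbp7 at 64.0%. Igtp kept the most, 80.5% (66.5% to 97.4%), with 7.64, 8.14, 7.53, 7.53 and 7.56 at 3 hr and 7.22, 7.57, 7.45, 7.64 and 6.96 at 24 hr. Its groups overlapped, and its call (adjusted p = 0.0412) was lost without replicate 1 or 2 of vehicle at 3 hr and without replicate 1 or 5 of vehicle at 24 hr, and with slide as a fixed or random block.

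Scaling mattered for this change over time. Quantile normalization and the authors' deposited series matrix moved the median of all genes by 0.10 and 0.45 and called 6 of the 10 lower. Igtp then lay at 0.22 and 0.14, above its level at 3 hr though not past the threshold. Gbp3 and Gbp7 lost their calls under both scalings, Irgm2 only under the first and Tgtp1 only under the second.

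Ifng at 24 hr with vehicle was at 21.8% of its level at 3 hr (15.3% to 31.1%). When Ifng was subtracted within each array before the fit, 7 of 10 members fell less than Ifng. That is no mark of the members, since 93.4% of all genes did so. The differences from Ifng were largest in Igtp (1.88 ± 0.26), Gbp7 (1.55 ± 0.26) and Gbp3 (1.49 ± 0.25). The 3 not told apart from Ifng were Gbp5 (-0.10, interval -0.59 to 0.40), Gbp6 (0.32, -0.17 to 0.81) and Irgm1 (0.46, -0.06 to 0.99), though Irgm1 was called without replicate 2 of vehicle at 24 hr. With quantile normalization 9 of 10 were called, Gbp6 (0.80, adjusted p = 0.00284) and Irgm1 (0.95, 0.000671) among them. The second Gbp6 probe (-2.79 from 3 to 24 hr) was not compared with Ifng. Iigp1 passed narrowly (0.61, adjusted p = 0.0444), and its call was lost without any one of replicates 1, 2 and 3 of vehicle at 3 hr or replicates 1, 3, 4 and 5 of vehicle at 24 hr.

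With BW245C 8 of 10 members fell from 3 to 24 hr, against 34.3% of all genes, with Gbp3 at 91.0% and Igtp at 86.3% of their levels at 3 hr not past the threshold. Gbp3 was called lower without replicate 5 of BW245C at 3 hr (adjusted p = 0.0193) and Igtp just so without replicate 5 of BW245C at 24 hr. Gbp5 fell to 22.6%, Iigp1 to 31.6% and Irgm1 to 39.9%. Ifng fell to 9.88%. All 10 members fell less than Ifng in these mice, as did 99.1% of all genes, with differences from 1.20 in Gbp5 to 3.20 in Gbp3.

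**Figure D3:**
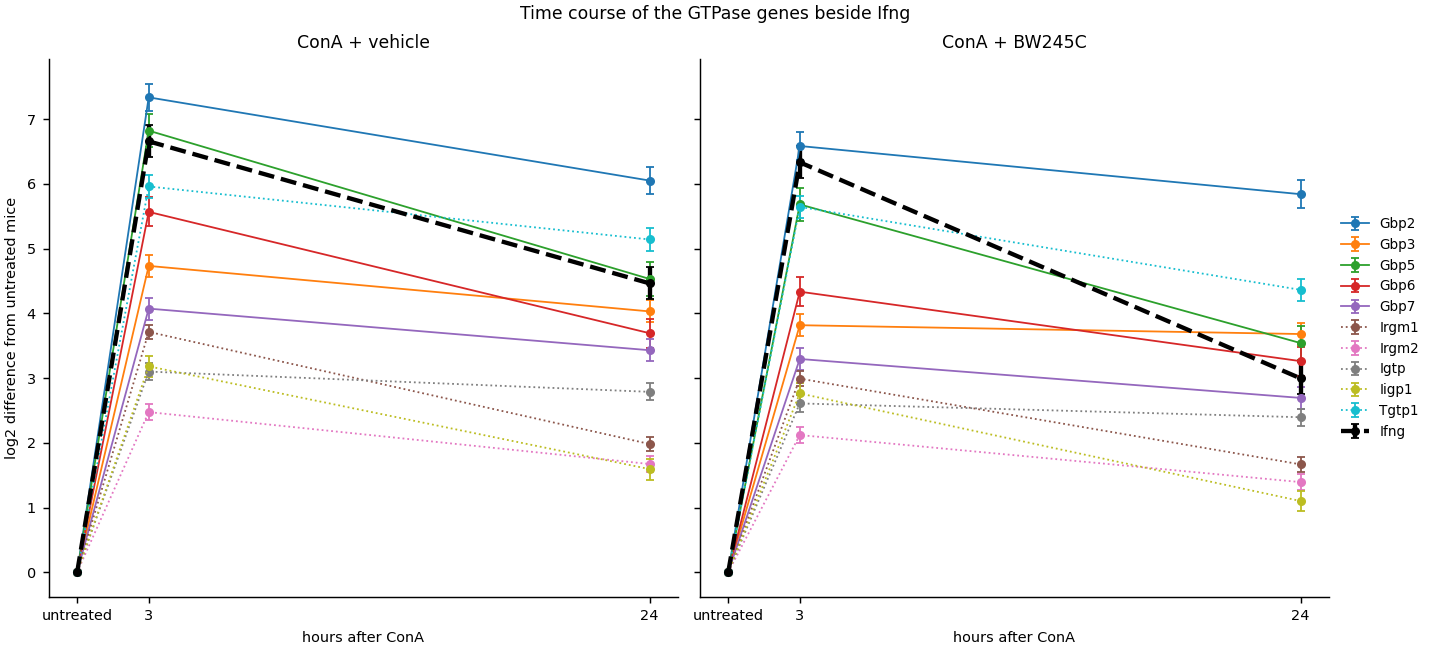
Log2 difference from untreated mice (drawn at 0) at 3 and 24 hr after concanavalin A, with vehicle on the left and BW245C on the right, for each member (solid, guanylate-binding proteins; dotted, immunity-related GTPases) and Ifng (dashed black). Points are limma estimates and bars their SE (n = 5 mice a group). With vehicle the line of Ifng runs beside that of Gbp5, and with BW245C it falls from 6.33 to 3.00 while Gbp3 and Igtp stay nearly level.

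At 3 hr the livers of mice given BW245C had lower levels of most of these genes than those given vehicle. The difference was past the threshold in 8 of 10 members, all lower, against 16.9% of all genes, and the mice of the 2 groups did not overlap in 9 of 10, against 9.5% of all genes lower in this way. The median was -0.74, where that of all genes was -0.04. All 5 guanylate-binding protein genes were called, with -0.75 to -1.23, and 3 of 5 immunity-related GTPase genes, with -0.35 to -0.72.

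By the probe used, Gbp6 had the largest difference. With its second probe (-0.71) it would stand behind Gbp5, Gbp3, Gbp7, Gbp2 and Irgm1. Its levels on the probe used were 7.13, 6.97, 6.87, 6.89 and 6.88 with vehicle and 6.08, 5.99, 5.81, 5.94 and 4.76 with BW245C. Even without the low value of replicate 5 the BW245C group lay below the vehicle group. The difference was -1.23 ± 0.22 (adjusted p = 0.000357), or 42.5% of the vehicle level. Gbp5 had 4.66, 4.63, 4.26, 4.75 and 3.35 with BW245C, all below its lowest vehicle mouse. It differed by -1.14 ± 0.26 (adjusted p = 0.00251), or 45.4% of the vehicle level. Gbp3 stood at 53.0% of the vehicle level (adjusted p = 0.000441), Gbp7 at 58.3% (0.00196) and Gbp2 at 59.4% (0.0121).

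Irgm1 had the smallest p of the 10. With BW245C its levels were 6.88, 6.96, 6.82, 7.16 and 6.58, all under the 7.41 of the lowest vehicle mouse. The difference was -0.72 ± 0.11 (adjusted p = 7.43e-05), or 60.6% of the vehicle level. Igtp differed by -0.49 ± 0.13 (adjusted p = 0.00900) and Irgm2 by -0.35 ± 0.13 (0.0396), and the call of Irgm2 was lost without any one of replicates 2, 3 and 5 of vehicle or replicates 1, 3, 4 and 5 of BW245C. Of the effectors, Iigp1 differed by -0.42 (interval -0.75 to -0.09, adjusted p = 0.0545) and Tgtp1 by -0.31 (-0.68 to 0.05, adjusted p = 0.178). Other probes gave more: in a fit over all probes the second Iigp1 probe differed by -0.65 (adjusted p = 0.00729), and the mean of the Iigp1 probes differed by -0.53 (0.0155). The Tgtp2 probes, which may read Tgtp1, differed by -0.76 (0.00234) and -0.42 (0.137). Iigp1 was called lower when any one of replicate 1 of the untreated mice, replicates 4 and 5 of vehicle at 24 hr or replicates 2 and 3 of BW245C at 24 hr was left out, with an adjusted p of 0.0383 to 0.0490.

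Ifng at 3 hr was 2.54, 1.97, 1.77, 1.61 and 1.51 with vehicle and 2.00, 2.03, 1.20, 1.53 and 1.02 with BW245C. The 2 groups overlapped. The difference was -0.32 ± 0.25 (interval -0.83 to 0.19, adjusted p = 0.336), so that a difference of the size seen in Gbp2 lies within the interval. In a comparison added after the data were seen, in which Ifng was subtracted within each array, only Gbp6 differed from vehicle by more than Ifng did (-0.91 ± 0.24, adjusted p = 0.0314), against 0.848% of all genes in this direction. This call was lost without replicate 2 or 3 of vehicle at 3 hr and without replicate 2 or 5 of BW245C at 3 hr. The mean of the Gbp6 probes lost it too (-0.65, adjusted p = 0.125), and the second probe differed from vehicle by only -0.71. Gbp5 (-0.82, adjusted p = 0.0550) was called without replicate 2 or 5 of BW245C at 24 hr.

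The slides bear on this comparison. On the slide that held 5 BW245C and 2 vehicle mice at 3 hr, all 10 members were lower with BW245C, by 0.26 to 1.22 on the log2 scale with a median of -0.62, and Ifng differed by -0.01. With slide as a fixed block 5 of 10 were called (Gbp3, Gbp5, Gbp6, Gbp7 and Irgm1), while Gbp2 (-0.58, adjusted p = 0.186), Igtp (-0.35, 0.165) and Irgm2 (-0.34, 0.204) were not. Replicate 5 of BW245C was the lowest of its group in all 10 members and in Ifng, and without it 7 of 10 were called with a median of -0.59.

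**Figure D4:**
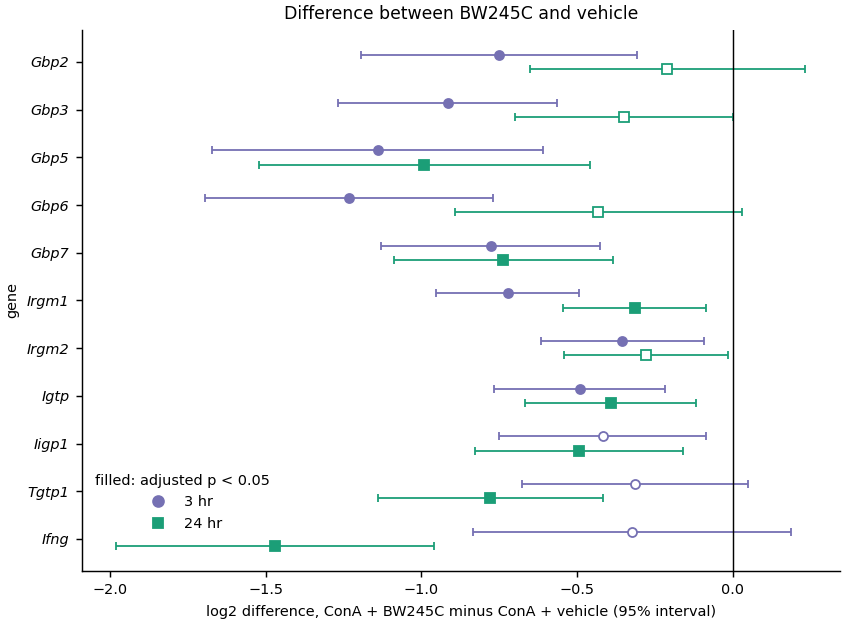
Difference between concanavalin A with BW245C and concanavalin A with vehicle for each member and Ifng on the log2 scale, at 3 hr (circles) and 24 hr (squares), with 95% intervals from limma (n = 5 and 5 mice). Filled symbols passed an adjusted p of 0.05. All points lie below 0, and Ifng is at -0.32 at 3 hr and -1.47 at 24 hr.

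At 24 hr 6 of 10 members were lower with BW245C than with vehicle and none higher, against 8.95% of all genes lower. The median was -0.41, where that of all genes was 0.01. Scaling mattered here too: quantile normalization and the authors' series matrix each called 8 at 24 hr, but 6 and 7 at 3 hr. The groups were separate in 1 of 10 members, Gbp7, against 5.41% of all genes lower in this way. Gbp7 had 3.51, 3.94, 3.64, 4.25 and 3.27 with vehicle and 3.03, 2.87, 2.78, 3.08 and 3.17 with BW245C. Every BW245C mouse was below every vehicle mouse, and the difference was -0.74 ± 0.17 (adjusted p = 0.00260).

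Gbp5 differed by -0.99 ± 0.26 (adjusted p = 0.00623), with 2.13, 1.55, 2.18, 2.28 and 2.79 with BW245C, of which only the last reached into the vehicle range. Tgtp1 had 1.42, 1.59, 1.57, 1.63 and 0.69 with vehicle and 0.52, 0.62, 0.30, 0.53 and 1.05 with BW245C. Only replicate 5 of each group crossed over, and the difference was -0.78 ± 0.17 (adjusted p = 0.00210). Iigp1 (-0.49 ± 0.16), Igtp (-0.39 ± 0.13) and Irgm1 (-0.32 ± 0.11) were called at adjusted p = 0.0265, 0.0322 and 0.0387. Gbp6 (-0.43), Gbp3 (-0.35), Irgm2 (-0.28) and Gbp2 (-0.21, interval -0.65 to 0.23) did not pass.

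These calls at 24 hr leaned on single mice. With vehicle replicate 2 or 4 or BW245C replicate 3 or 4 left out, 3 of 10 were called, since Irgm1, Igtp and Iigp1 then missed the threshold. Irgm1 and Igtp also missed it without vehicle replicate 3 or BW245C replicate 1 or 2. Without vehicle replicate 5, the lowest of its group in all 10 members, 8 were called, Gbp6 and Irgm2 among them, and Gbp3 was called without replicate 5 of BW245C at 3 hr. With any single array left out, Gbp5, Gbp7 and Tgtp1 had a call. On the slide with 4 vehicle and 3 BW245C mice all 10 were lower with BW245C, by 0.36 to 1.21 on the log2 scale, and with slide as a fixed block 6 of 10 were called.

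Ifng at 24 hr was -0.33, 0.24, -0.41, -0.22 and -0.84 with vehicle and -1.77, -2.44, -1.88, -1.64 and -1.19 with BW245C. The groups were separate, and BW245C stood at 36.1% of the vehicle level (-1.47 ± 0.25, adjusted p = 0.000166). In the comparison added after the data were seen, 9 of 10 members were lowered less than Ifng, but so were 95.9% of all genes. With normexp background correction 7 of 10 were called, and Gbp7 (0.26, adjusted p = 0.226) and Tgtp1 (0.32, 0.127) were not. Gbp5 was not told apart from Ifng (0.48, interval -0.02 to 0.97), but was without replicate 4 of vehicle at 24 hr (adjusted p = 0.0436).

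Whether the difference between BW245C and vehicle changed from 3 to 24 hr was tested as an interaction. No member passed, against 30% of all genes in either direction, and 3 had an unadjusted p under 0.05: Gbp6 (0.80 ± 0.32, adjusted p = 0.0574), Gbp3 (0.57 ± 0.24, 0.0755) and Irgm1 (0.41 ± 0.16, 0.0527), all with a smaller deficit at 24 hr. The second Gbp6 probe, in a limma fit over all probes, gave 0.36 ± 0.26 (adjusted p = 0.299). Tgtp1 had the opposite sign (-0.46, interval -0.98 to 0.05). Without vehicle replicate 4 at 24 hr these 3 were called, with adjusted p of 0.0308 to 0.0488. Leaving out replicate 2 of vehicle at 24 hr or replicate 4 of BW245C at 3 hr gave 2 calls. Leaving out replicate 4 of vehicle at 3 hr, replicate 1 of BW245C at 3 hr, replicate 5 of vehicle at 24 hr (Tgtp1, adjusted p = 0.0295) or replicate 2 of BW245C at 24 hr gave 1 call. Ifng did pass, with a larger deficit at 24 hr (-1.14 ± 0.35, adjusted p = 0.0185). The median interaction of the members was 0.12, where that of all genes was 0.10. With quantile normalization it was -0.15 (all genes 0.07), and with the series matrix -0.10 (all genes -0.12). The direction for the members as a set thus depended on the scaling.

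Markers of cell types were also compared between these groups. The summed signal of 7 neutrophil markers was taken in units of the 75th percentile of the array. At 24 hr it was 260 to 391 with vehicle and 132 to 209 with BW245C. Lower calls were made in 5 of 7 markers, against 8.95% of all genes. At 3 hr the sum was 177 to 293 and 169 to 263, with none called. The sum of 7 monocyte and macrophage markers was 66.6 to 117 with vehicle and 46.7 to 74.96 with BW245C at 3 hr. At 24 hr the sums were 49.2 to 87.9 and 34.1 to 42.9. Of the 7 markers 2 and 1 were called lower, against 16.9% and 8.95% of all genes. The median difference over these 7 markers was 0.10 at 3 hr and 0.25 at 24 hr, opposite in sign to the change of the sum. For the 12 T and NK cell markers measured of 15 listed the sum was 54.2 to 103 and 85.0 to 122 at 3 hr and 65.6 to 101 and 53.9 to 87.7 at 24 hr. At 3 hr 2 of the 12 were called lower with BW245C, no more than the 16.9% of all genes, and 2 were higher. At 24 hr 2 were lower, against 8.95% of all genes. From 3 to 24 hr with vehicle the median difference of the 12 was 1.499, where that of all genes was -0.03. Over that time 4 of 5 Kupffer cell markers fell with a median of -2.33, and all 10 hepatocyte markers with a median of -1.31. Of all genes 35.3% were called lower over that time. The summed level of 10 hepatocyte markers was 5652 to 7321 and 5348 to 6344 at 3 hr, and 2652 to 3694 and 3125 to 4460 at 24 hr. No defining marker among those measured was below background on every array of these 4 groups except Ccr2 with vehicle at 3 hr and Cd8a with BW245C at 3 hr. The part of these markers in the differences was not tested.

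Genes listed for interferon-γ signalling moved too. Of 15 genes of interferon-γ signalling, 13 were higher with vehicle at 3 hr, against 25% of all genes, with a median of 1.97. Socs1, which restrains Jak kinases, rose by 8.08 ± 0.22, and the transcription factors Irf8 and Irf1 by 5.48 ± 0.24 and 4.93 ± 0.15. The receptor chain Ifngr2 rose by 1.97 ± 0.13 and Jak2 by 1.94 ± 0.16. At 24 hr with vehicle, Irf1 was at 13.1% of its level at 3 hr, Irf8 at 13.9% and Socs1 at 14.4%.

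With BW245C at 3 hr 9 of the 15 signalling genes were lower than with vehicle, against 16.9% of all genes, and Irf9 was higher. Jak2 differed by -0.86 ± 0.16 (adjusted p = 0.000626), Ifngr2 by -0.50 ± 0.13 (0.00574) and Jak1 by -0.38 ± 0.09 (0.00275). Within the slide that held both groups these differences were -0.60, -0.21 and -0.23. Irf1 (-0.24, interval -0.54 to 0.07) did not pass. At 24 hr 7 of 15 were lower, against 8.95% of all genes, and none higher, with Socs1 at -1.58 ± 0.22, Irf1 at -0.94 ± 0.15 and Irf8 at -0.76 ± 0.24. Jak2 (-0.30) and Ifngr2 (-0.11) did not pass at that time. Of 10 measured genes that induce Ifng, 1 was lower with BW245C at 3 hr, no more than the 16.9% of all genes, and 1 was higher. At 24 hr 3 were lower, against 8.95% of all genes, and Il18 was higher (0.52 ± 0.12).

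The list of other GTPases also names Mx and Gvin genes, outside the families of the members. Of its 15 measured genes, 13 rose at 3 hr with vehicle, against 25% of all genes, with a median of 2.39. With BW245C at 3 hr 7 were lower than with vehicle, against 16.9% of all genes, and 1 was higher. Ifi47 rose by 5.47 ± 0.17, Gbp4 by 5.18 ± 0.23, Gbp9 by 4.99 ± 0.29 and Gm12250 by 4.60 ± 0.21. Gbp9 had 4.14, 3.38, 3.23, 3.26 and 3.07 with vehicle and 1.16, 1.23, 0.76, 1.45 and -0.53 with BW245C at 3 hr. No BW245C mouse came near the vehicle group, and the difference of -2.60 ± 0.29 (adjusted p = 2.25e-06) was larger than in any member. Gbp4 differed by 0.09 (interval -0.39 to 0.58) at 3 hr, but by -0.45 within the slide that held all 5 BW245C and 2 vehicle mice, so its direction at 3 hr is unsettled. At 24 hr Gbp4 differed by -0.86 ± 0.23. Gm12250 differed by -0.10 (-0.54 to 0.33) at 3 hr, by 0.18 within that slide, and by -0.996 ± 0.21 at 24 hr. Gbp2b lies in the same cluster on chromosome 3, whose order in RefSeq is Gbp5, Gbp7, Gbp3, Gbp2b and Gbp2, and it did not pass at 3 hr with vehicle (-0.43, interval -1.46 to 0.61).

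The genes whose course over the 4 concanavalin A groups was closest to the median of the members, out of 15094 others, were Elf3, Stx11, Ifit1, Ifi211 and Mefv. The measure was the mean absolute difference of the 4 log2 changes from untreated mice, 0.30 for Elf3 and 0.34 for Mefv. Elf3 is an epithelial transcription factor, Stx11 a syntaxin of immune cells, Ifit1 an interferon-induced RNA-binding protein, and Mefv encodes pyrin. Ifng ranked 312 by this measure, at 1.49. That does not set it apart from the members. Gbp2 (2.83), Irgm2 (1.71), Tgtp1 (1.65) and Gbp5 (1.52) lay farther from their own median than Ifng did. The other members lay nearer, down to 0.25 in Gbp7. The measure takes in the size of the changes as well as their course.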

How the data were processed

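The arrays' Cy3 intensity values were background-subtracted by Agilent Feature Extraction and not scaled between arrays, per the file headers. These name version 10.7.3.1 and the mm9 build for the probe design, while the submitters' processing notes name version 9.1. The authors' series matrix gives those intensity values times a factor per array, and how it was chosen is not stated. It served as an alternative.

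From 59305 spots other than controls, 3446 outlier-flagged spot values over the 25 arrays were left out, and spots of a probe were averaged. Log2 signals minus the 75th percentile of the array were used. A probe had to be well above background on 5 or more of the 25 arrays (33504 of 55681, of which 19625 with a symbol through RefSeq accessions), and a gene took its brightest probe. Group means were fitted over all groups with limma 3.58.1 in R 4.3.3 (packages jsonlite 2.0.0 and data.table, version 1.17.8), and p-values were adjusted over the whole set of genes (Benjamini-Hochberg). The range of a marker sum leaves out any array on which a marker of the list had only flagged spots. Figures were drawn with Python 3.11.15 and matplotlib 3.10.9 (numpy 2.4.6, pandas 2.3.3). The fit was tested on simulated data for 3 hr against untreated: it found 26, 42, 49 and 50 of 50 genes changed 1.5, 2, 4 and 8-fold, with 8 false calls among 15104 genes.

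The 10 members and Ifng were always named. Other genes came from lists of interferon-γ signalling, inducers of Ifng, other GTPases, the machinery that attaches them to vacuoles, inflammasome genes and cell type markers, or from the 5 closest courses. Members and lists were chosen with earlier results of these data known. The labels give 5 mice a group, and that number of arrays bounds what can be resolved. Replicate numbers did not pair mice: 4 of 25 arrays correlated best with an array of their own number. Alternatives covered background correction, scaling, filter, probe choice, slide and replicate blocks, samples fitted, threshold and each array left out.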

Additional observations from a re-analysis of the deposited data

Results flagged for a closer look

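Each member and Ifng was examined in each group of mice, which gave 55 sets of 5 values. In 7 of these 55 sets, 1 mouse lay far from the other 4 by Dixon's ratio of its gap to the range of the set (threshold 0.710). Chance would flag about 1 in 20 independent sets, but these sets share the same mice across genes. Several flags fell on the same mouse, so 7 of 55 cannot be read against that rate. Replicate 5 of BW245C at 3 hr was low in Gbp3 (ratio 0.720, level 4.44 against 5.29 for the next mouse), Gbp6 (0.794, 4.76 against 5.81) and Igtp (0.759, 6.96 against 7.20). Replicate 5 of BW245C at 24 hr, the only array on its slide, was high in Irgm1 (0.887, 5.84 against 5.51) and Igtp (0.726, 7.33 against 6.97). Igtp was high in replicate 2 of vehicle at 3 hr (0.815, 8.14 against 7.64). Tgtp1 was low in replicate 5 of vehicle at 24 hr (0.780, 0.69 against 1.42). The difference of Ifng between BW245C and vehicle changed from 3 to 24 hr by -1.14 on the log2 scale.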

How the results depend on the processing

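The counts of members higher than in untreated mice were 10 of 10 under all alternatives run in the 4 comparisons. With each array left out in turn, members called ranged from 10 to 10 there, from 7 to 9 for BW245C against vehicle at 3 hr, 3 to 8 at 24 hr, 9 to 10 for 24 against 3 hr with vehicle and 8 to 9 with BW245C, and 0 to 3 for the interaction. Members that differed from Ifng ranged from 0 to 2 for BW245C at 3 hr, 9 to 10 at 24 hr, 6 to 8 for the change over time with vehicle and 10 to 10 with BW245C. For 24 against 3 hr with vehicle, quantile normalization and the series matrix called 6, and Igtp reversed to 0.22 and 0.14. For BW245C at 3 hr, slide as a fixed block called 5, as did leaving out together the 2 arrays at 3 hr that stood apart, chosen after seeing the data. For BW245C at 24 hr, fitting only the groups compared and a threshold of 0.01 each called 3. Quantile normalization and the series matrix each called 8 there, Gbp3 and Irgm2 among them. For the interaction, a filter on all 25 arrays (Ifng, which fails it, was put back) and an intensity trend called 2. The series matrix called 1, Tgtp1, with a larger deficit at 24 hr (-0.69). Members lowered more than Ifng at 3 hr were 2 with normexp at an offset of 50, slide as a random block or a trend, and 0 without a filter, with slide as a fixed block, the groups compared only, the mean of probes, 0.01 or without those 2 arrays. The replicate block gave 7 for BW245C at 3 hr (Irgm2 at adjusted p = 0.0603), 6 at 24 hr, 9 over time with vehicle (Igtp at 0.0587), 6 for members that fell less than Ifng over time with vehicle and 0 for the interaction, and changed no other count. Of 509 recomputed counts 474 were within 1.5 times the main one. The cause of these shifts was not tested. With 5 mice a group, small differences can be missed. In simulated data 26 of 50 genes changed 1.5-fold were found. That simulation changed far fewer genes than were called here and had no slide effect. Its share therefore does not measure what these comparisons miss.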

Other observations

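Of 14 genes of the machinery that places these GTPases on membranes, 5 were higher with vehicle at 3 hr than in untreated mice, against 25% of all genes, and 4 were lower, with a median of 0.09. From 3 to 24 hr 10 of the 14 fell with vehicle, against 35.3% of all genes, with a median of -0.57, and 9 fell with BW245C, against 34.3%. Of 9 measured inflammasome genes 6 were higher with vehicle at 3 hr than in untreated mice, against 25% of all genes, with a median of 1.08, led by Casp4 (3.51 ± 0.25), a sensor of cytosolic lipopolysaccharide. Casp4 differed between BW245C and vehicle by -0.21 (interval -0.72 to 0.31) at 3 hr, where it was 0.06 within the slide that held both groups, and by -1.10 ± 0.25 (adjusted p = 0.00230 in limma) at 24 hr.

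Within a group the members often ranked the mice alike. Replicate 5 of BW245C at 3 hr and replicate 5 of vehicle at 24 hr were each the lowest of 5 in all 10 members and in Ifng. Replicate 5 of BW245C at 24 hr was the highest in 9 of 10 and in Ifng, and replicate 4 of vehicle at 24 hr in 9 of 10 but not in Ifng. In vehicle at 3 hr, replicate 3 was the lowest in 8 of 10, while Ifng was lowest in replicate 5. Gbp2b, at -1.80, -2.76, -1.54, -4.33 and -1.88 in untreated mice, had -2.28, -3.91, -2.99, -2.43 and -2.83 with vehicle at 3 hr and -3.69, -3.08, -5.93, -3.95 and -3.67 with BW245C at 3 hr. Replicates 3 and 4 with BW245C were not well above background. Untreated replicate 4 lay apart, and the other untreated mice were all above the BW245C mice.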
